A study of Homo sapiens with 3 samples.

Results

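Autism-associated nuclear regulator genes were examined for peaks of the chromatin proteins CHD8 and TRRAP in neural stem cells. The 43 members were a list of genes linked to autism or neurodevelopmental disorders that code for chromatin, transcription and signalling regulators, out of 20033 protein-coding genes on chromosomes 1 to 22, X and Y. The rule for the list uses no peak values, but the genes were chosen with earlier results of these data known. The cells were wild-type and came from the H9 line, an established line of human embryonic stem cells that had been turned into neural stem cells and was grown with EGF and FGF. Chromatin immunoprecipitation and sequencing (ChIP-seq) used cells fixed with 2 mM disuccinimidyl glutarate and then 1% formaldehyde, with chromatin sheared in 14 sonication cycles. All libraries share this line, genotype and fixation. There was 1 library with an antibody against CHD8 and 1 with an antibody against TRRAP. The IgG control library and the input were not analysed here. One line stands for the cell type, and with 1 library per antibody no replicate error or p-value can be given.

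CHD8 is an ATP-dependent chromatin remodeler of the CHD family, and loss-of-function variants of its gene are a recurrent genetic cause of autism. TRRAP is a large scaffold protein of histone acetyltransferase complexes that binds activators such as MYC and E2F. Many other high-confidence autism genes also code for nuclear proteins: factors that bind DNA, enzymes that write or erase chromatin marks, and cofactors that read marks or hold complexes together. The question addressed is at which of these genes CHD8 and TRRAP peaks lie, how strong and how wide they are, and whether the proteins share sites.

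The CHD8 list held 23393 peaks and the TRRAP list 14735. Each peak carries a fold, which is the authors' ratio of signal at the summit over the caller's background. CHD8 folds fell on evenly spaced values 0.442 apart in 23392 peaks, within 0.02 of a step, and TRRAP folds on values 0.478 apart in all 14735. Such spacing is what 1 background value per list would give, although the caller settings are not stated. A fold then ranks summit height on 1 scale within its own list, and equal folds at different genes are common. On that reading folds are not corrected for local background, which also bears on comparisons between members and all genes. Folds of the lists were not compared with each other. The read totals behind the lists are unknown. Among marker genes, promoter peaks of CHD8 lay at 7 of 7 neural stem cell genes, 1 of 3 pluripotency genes (LIN28A) and 2 of 4 neuronal genes (MAP2 and SYP). TRRAP peaks lay at 6 of 7 (all but FABP7), at LIN28A and at MAP2. Over all protein-coding genes the shares were 55.9% for CHD8 and 34.9% for TRRAP. Peaks report binding, not expression, so they do not test the identity of the cells.

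At their promoters, defined as 1 kb on each side of the start of the canonical transcript, 38 of the 43 members had a CHD8 peak (88.4%, Wilson 95% interval 75.5 to 94.9). The share over all protein-coding genes was 55.9%. A TRRAP promoter peak was present at 28 members (65.1%, 50.2 to 77.6), beside 34.9% of all genes. All 28 also had CHD8, so both peaks were found at 65.1% of the members and at 34.0% of all genes. Of the others, 10 members had CHD8 alone and 5 had neither. Among members with CHD8, 73.7% (58.0 to 85.0) also had TRRAP, and over all genes with CHD8 the share was 60.7%, which lies inside that interval. These intervals cover counting error over genes only. They treat the genes of a chosen list as independent draws, so a share inside or outside an interval is a description and not a test. Reads without molecular identifiers are not independent molecules.

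**Figure D1:**
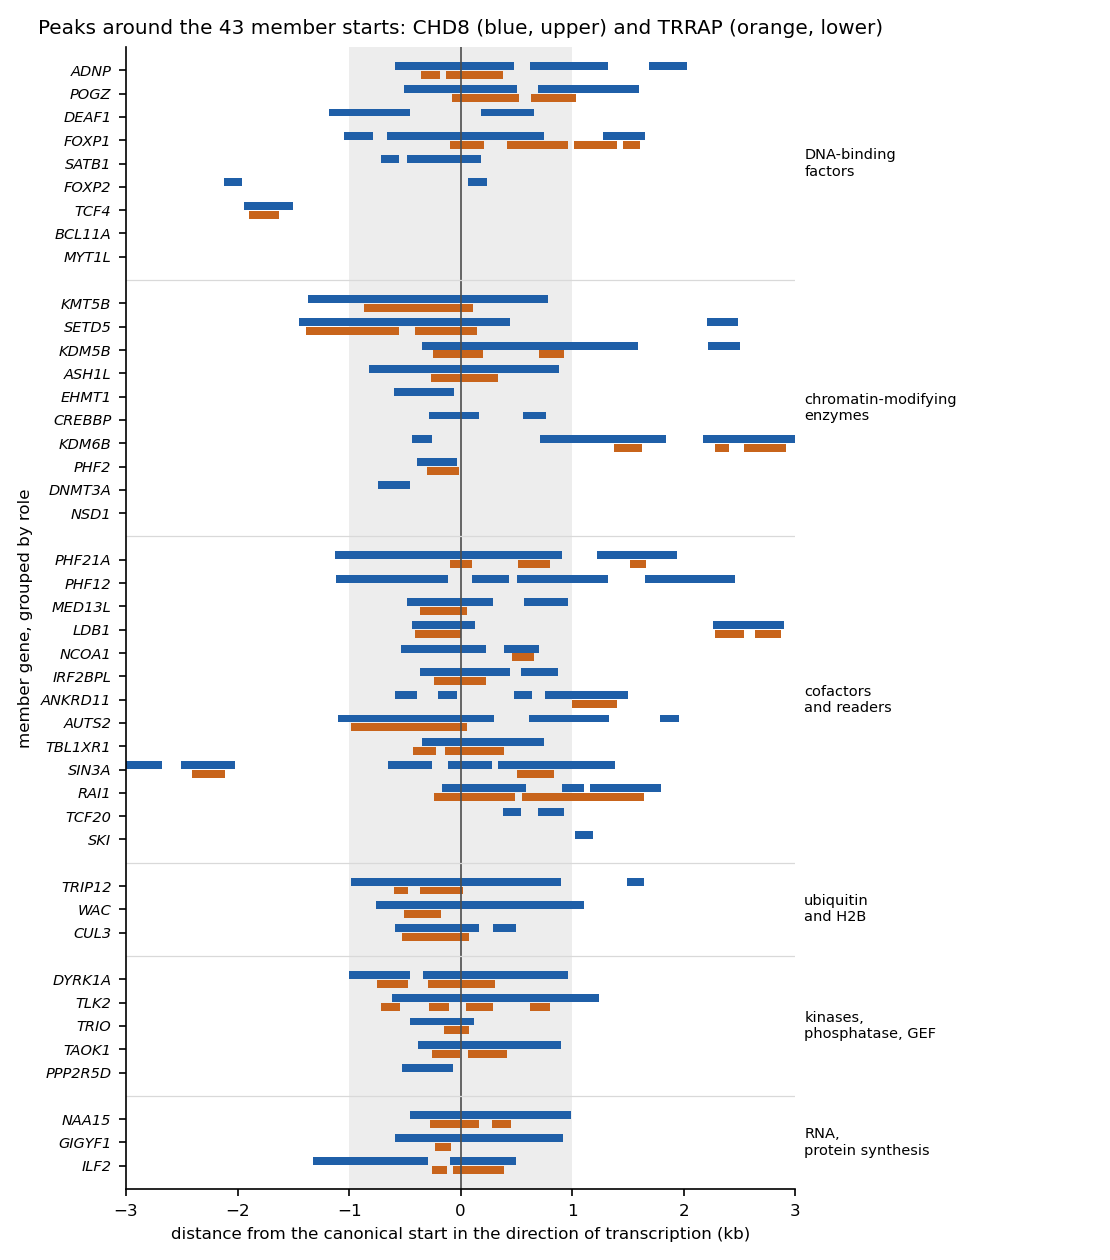
Promoter and gene-body peaks of CHD8 (blue, upper bar) and TRRAP (orange, lower bar) within 3 kb of the canonical start of each of the 43 members. Genes are ordered by role and, within a role, by CHD8 fold. Peaks outside both the 1 kb window and the gene are not drawn. The horizontal axis is distance from the start in kb in the direction of transcription, and grey marks the 1 kb window on each side. CHD8 bars touch the window at 38 members and TRRAP bars at 28, and KMT5B has the widest of the CHD8 bars in the window (2153 bp).

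Member starts were rich in CpG. The ratio of observed to expected CpG within 500 bp of the start had a median of 0.886, beside 0.725 over all genes, and 32 of 43 members (74.4%, 59.8 to 85.1) belonged to the upper 3 deciles of all genes. Within those deciles, CHD8 peaks lay at 28 of 32 members (87.5%, 71.9 to 95.03) and at 82.8% of all genes. TRRAP peaks lay at 22 of 32 members (68.8%, 51.4 to 82.0) and at 60.8% of all genes. Both all-gene shares lie inside the members' intervals, so among CpG-rich starts a difference in presence was not detectable with this number of genes. In the lower 5 deciles CHD8 peaks lay at 5 of 6 members (83.3%, 43.6 to 96.99), the exception being MYT1L, and at 31.4% of all genes. That all-gene share lies below the interval, which rests on 6 genes. TRRAP peaks lay in these deciles at 2 of 6 members (33.3%, 9.68 to 70.0) and at 14.9% of all genes, a share inside the interval. In deciles 6 and 7 CHD8 lay at 5 of 5 members and 77.2% of all genes, and TRRAP at 4 of 5 and 46.4%.

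**Figure D2:**
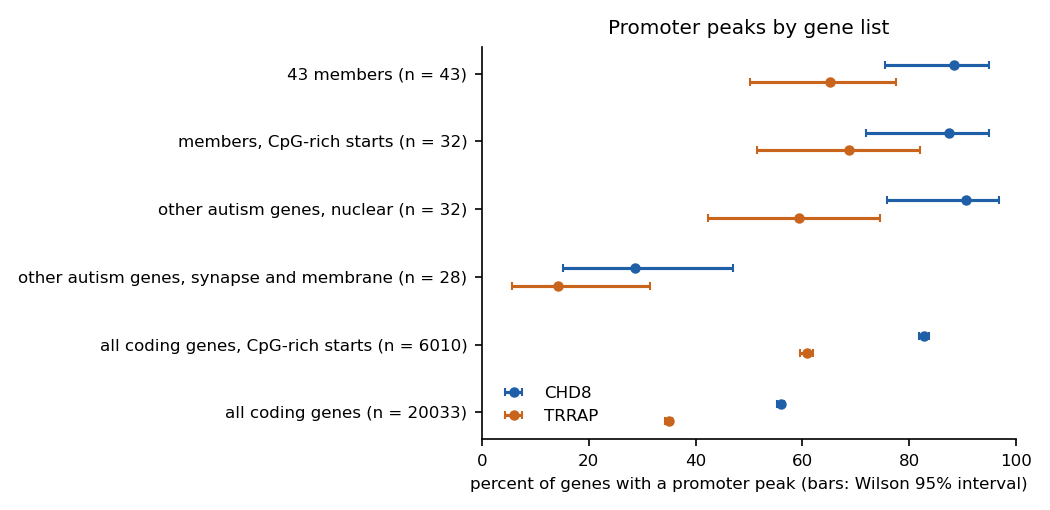
Percent of genes with a CHD8 (blue) or TRRAP (orange) promoter peak for the members, the other autism gene lists and all protein-coding genes, with Wilson 95% intervals as bars. CpG-rich starts are the upper 3 deciles of CpG ratio. The members stand at 88.4% and 65.1%, and the list of synapse and membrane genes at 28.6% and 14.3%.

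Factors that bind DNA were the role group with the lowest share of promoters with a peak of either protein. CHD8 lay at 6 of 9 promoters and TRRAP at 3 of 9, beside 55.9% and 34.9% of all protein-coding genes. The counts of the other role groups stand beside the same all-gene shares, and each group holds few genes. ADNP, a homeodomain and zinc-finger protein, had a CHD8 peak at chr20:50930957-50932024 with a fold of 50.9, above that of 99.4% of all promoters with a CHD8 peak. Its TRRAP peak had a fold of 10.6. Both summits lay in exon 1 in the 5′ UTR, 10 bp apart. POGZ, a zinc-finger protein that binds heterochromatin protein 1, had folds of 28.8 for CHD8 and 17.2 for TRRAP. FOXP1, a forkhead factor, showed a moderate CHD8 fold of 16.8 but the second-highest TRRAP fold of the members, 23.9 (chr3:71583517-71583827). Its relative FOXP2 differed: its CHD8 peak at chr7:114414884-114415055 was 172 bp wide with a fold of 7.54, and its nearest TRRAP summit was 328 kb upstream. That TRRAP peak (chr7:114086117-114086536, fold 11.0) lies at the start of longer FOXP2 transcripts, outside the canonical promoter.

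DEAF1 and SATB1 had CHD8 without TRRAP. The CHD8 peak of DEAF1 (chr11:695678-696402, fold 17.3) had its summit 648 bp upstream. The opposite-strand genes EPS8L2 and TMEM80 have starts within 1 kb of the DEAF1 start. SATB1, an organizer of chromatin loops, had a fold of 7.98 at chr3:18425154-18425820. No promoter peak of either protein was present at TCF4, BCL11A or MYT1L. Within this group, occupancy therefore ran from a fold of 50.9 to none.

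Those absences differ in kind. At TCF4, a basic helix-loop-helix factor, a CHD8 peak of fold 15.5 and a TRRAP peak of fold 11.5 had summits 1.70 and 1.75 kb upstream of the canonical start, within 1 kb of another coding start of the gene. At BCL11A, a zinc-finger factor with a CpG ratio of 0.873, the nearest CHD8 summit was 203 kb away. At MYT1L, a zinc-finger factor of neurons, it was 282 kb away.

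Enzymes that modify chromatin had CHD8 at 9 of 10 promoters and TRRAP at 5. KMT5B, a histone H4 lysine methyltransferase, held the strongest CHD8 peak of the members: chr11:68212515-68214667, fold 93.7, −log10 q 355, rank 15 of all CHD8 peaks. Among the 11208 protein-coding promoters with a CHD8 peak, none had a higher fold. Its TRRAP peak, chr11:68213188-68214162, had a fold of 26.3, the highest of the members, with the summit 106 bp from that of CHD8. Upstream of the canonical start (chr11:68213296) the annotated gene extends to chr11:68213852. Just beyond that end of the gene, 584 bp upstream of the canonical start, lay the CHD8 summit. The 61 bases around it, given because this is the highest CHD8 fold of the members (chosen after the values were seen), are on GRCh38 at chr11:68213850-68213910, minus strand.
KMT5B CHD8 summit: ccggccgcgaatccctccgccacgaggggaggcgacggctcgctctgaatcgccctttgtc

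SETD5, a SET-domain protein, had folds of 21.2 for CHD8 and 20.1 for TRRAP (chr3:9396226-9397059). KDM5B, a histone demethylase, had 19.9 and 22.02 (TRRAP at chr1:202808218-202808671), and ASH1L, a histone methyltransferase, 18.6 and 15.8. In all 3 and in KMT5B the CHD8 peak was at least 1705 bp wide. PHF2, a demethylase, had a weak CHD8 peak, with a fold of 7.98 at chr9:93576192-93576551. Its TRRAP fold of 9.12 was close to the all-gene median of 8.65. These 5 genes are the enzymes with both peaks.

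CREBBP, EHMT1, KDM6B and DNMT3A had CHD8 without TRRAP. The CHD8 folds were 12.0 for CREBBP, a histone acetyltransferase (chr16:3880550-3881000), 14.6 for EHMT1, a histone methyltransferase (chr9:137618404-137618949), 9.75 for KDM6B, a demethylase (chr17:7834927-7836054), and 7.98 for DNMT3A, a DNA methyltransferase (chr2:25342377-25342665). At KDM6B a TRRAP peak of fold 9.60 began 1379 bp from the start, outside the window, and overlapped the same CHD8 peak, whose own summit lay 1188 bp downstream. NSD1, a histone methyltransferase with a CpG ratio of 0.866, had no CHD8 summit within 111 kb and no TRRAP summit within 127 kb. Among these enzymes, those with CHD8 alone had CHD8 folds of at most 14.6, whereas 4 of the 5 with TRRAP had at least 18.6. A like division was seen among the signalling genes, where PPP2R5D (7.10) lacked TRRAP and the genes with TRRAP had CHD8 folds of at least 15.5. FOXP2, SATB1 and TCF20, also with CHD8 alone, had folds of at most 7.98. The division did not hold in every role. PHF12 (19.9) and DEAF1 (17.3) lacked TRRAP, and RAI1 (10.2) and ILF2 (11.1) had it.

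Cofactors and readers had CHD8 at 12 of 13 promoters and TRRAP at 10. PHF21A, a reader in the CoREST complex, had the second-widest CHD8 promoter peak of the members, 2040 bp (chr11:46120546-46122585, fold 39.8), and a TRRAP fold of 9.12. PHF12, a reader in SIN3 complexes, had 3 CHD8 promoter peaks, the strongest with a fold of 19.9 (chr17:28951629-28952634), and its nearest TRRAP summit was 48.5 kb away. The other members with both peaks were MED13L, LDB1, NCOA1, IRF2BPL, ANKRD11, AUTS2, TBL1XR1, SIN3A and RAI1. Their CHD8 folds ran from 10.2 (RAI1) to 19.5 (MED13L, of the Mediator kinase module).

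TRRAP folds in this group ran from 5.78 at SIN3A, the scaffold of a histone deacetylase complex (chr15:75450854-75451186) and the lowest of the members, to 17.2 at RAI1, a chromatin-associated regulator. TBL1XR1, a subunit of nuclear receptor corepressor complexes, had 15.8 and AUTS2, a partner of Polycomb proteins, 13.9. At ANKRD11 the TRRAP peak (fold 12.5) reached the window only at its edge, 999 bp from the start. TCF20, a relative of RAI1, had a weak CHD8 peak alone (fold 7.10, chr22:42269727-42269964). SKI, a corepressor of SMAD signalling, lies just outside the window: a CHD8 peak of fold 7.98 began 1029 bp from its start, inside exon 1.

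Ubiquitin regulators had both peaks at 3 of 3 promoters. TRIP12, a ubiquitin ligase, had a CHD8 fold of 38.0 (chr2:229921105-229922991) but a TRRAP fold of 6.26 (chr2:229922477-229922611). WAC, an adaptor for ubiquitylation of histone H2B, had 18.1 and 7.69, and CUL3, the scaffold of a ubiquitin ligase, had 12.4 and 9.12. The order of the 3 genes by CHD8 fold was the reverse of their order by TRRAP fold.

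Signalling genes had CHD8 at 5 of 5 promoters and TRRAP at 4. CHD8 folds were 23.01 at DYRK1A, 19.5 at TLK2 and 15.5 at TAOK1, which code for kinases, and 16.8 at TRIO, a GTPase exchange factor. Their TRRAP folds lay close together, from 8.65 at TLK2 to 10.1 at TRIO. PPP2R5D, a phosphatase subunit, had CHD8 alone, with a fold of 7.10 (chr6:42984042-42984500). At TLK2, 4 separate TRRAP peaks overlapped 1 CHD8 peak of 1851 bp. The strongest of them (chr17:62478113-62478277) reached out past its upstream edge.

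RNA and protein synthesis genes had both peaks at 3 of 3 promoters. NAA15, a subunit of an N-terminal acetyltransferase, had folds of 36.7 for CHD8 (chr4:139301055-139302491) and 12.5 for TRRAP. GIGYF1, a translational repressor, had 23.01 and 6.73 (TRRAP at chr7:100694339-100694479). ILF2, an RNA-binding protein, had 11.1 for CHD8, rank 8097 of its list, and 18.2 for TRRAP (chr1:153670601-153671064), rank 957.

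**Figure D3:**
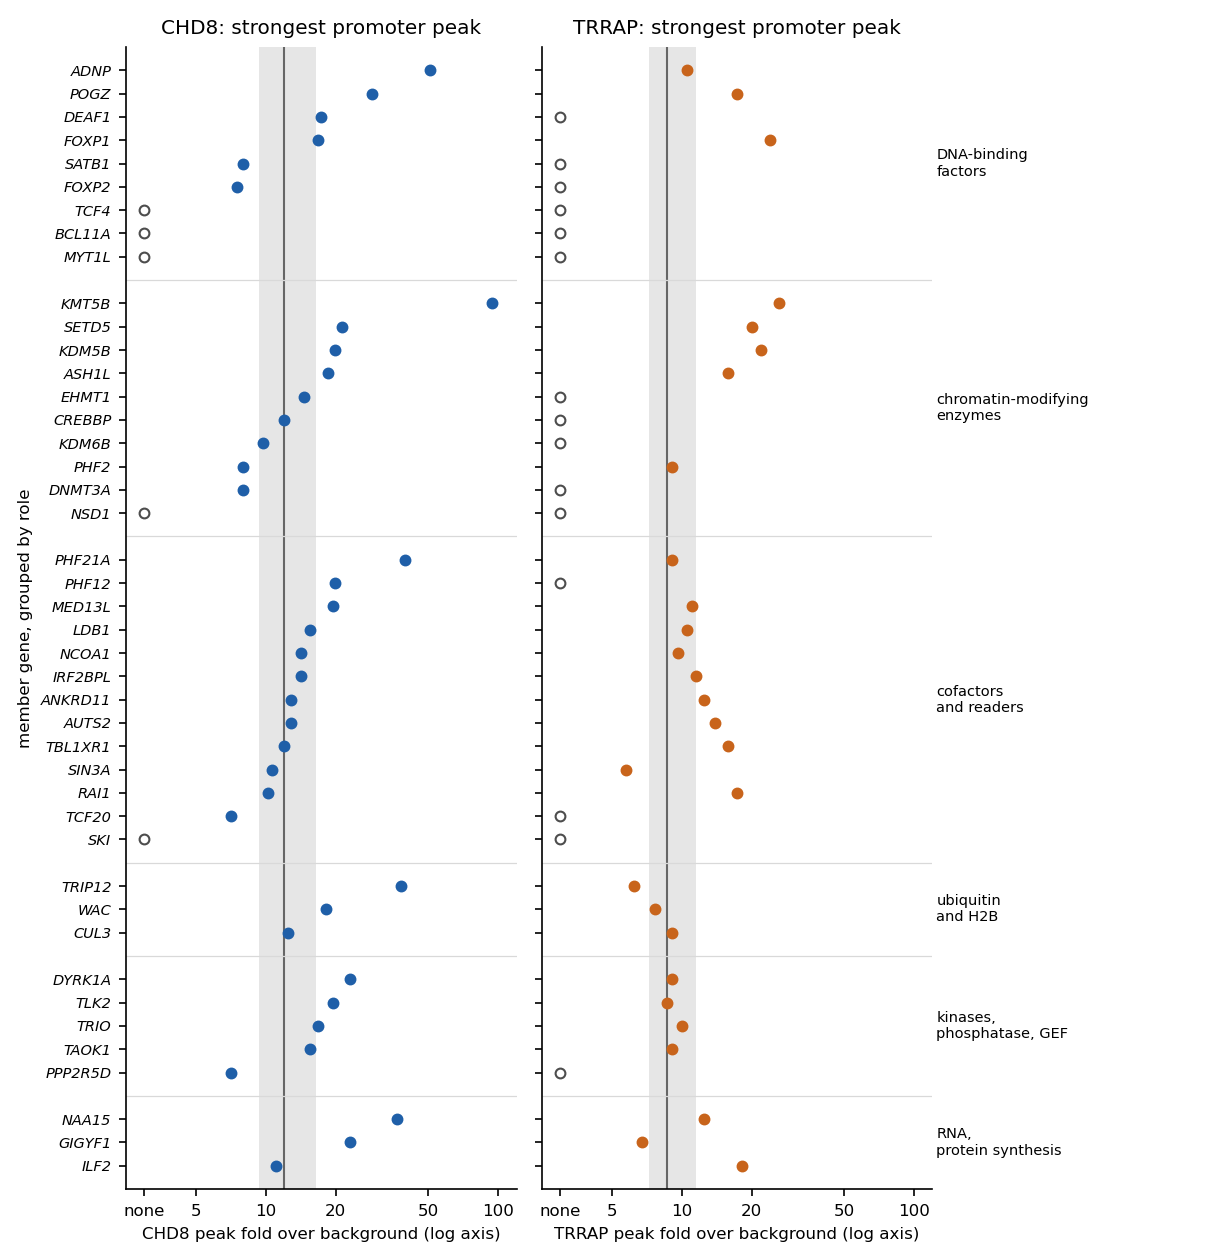
Fold of the strongest promoter peak of each member, by role, for CHD8 (left) and TRRAP (right), on a log axis. Open circles mark members with no promoter peak, the line is the median of all protein-coding genes with a peak (12.0 and 8.65), and the grey band runs from the 25th to the 75th percentile. KMT5B has the highest value in both panels, 93.7 and 26.3.

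Across the 38 members with CHD8, the median fold was 15.5 (range 7.10 to 93.7), beside 12.0 over all 11208 genes with a CHD8 promoter peak. Folds above that all-gene median were found at 26 of 38 members (68.4%, 52.5 to 80.9) and at 49.4% of all genes. Across the 28 members with TRRAP the median fold was 10.8 (5.78 to 26.3), beside 8.65 over 7000 genes, and 23 of 28 (82.1%, 64.4 to 92.1) exceeded the all-gene median, as did 48.6% of all genes. Within the CpG-rich deciles the medians were 15.5 for members and 12.4 for all genes with CHD8, and 10.8 and 9.12 with TRRAP. Across the 28 members with both, Spearman's rho between the strongest CHD8 and the strongest TRRAP fold was 0.018, and it was 0.144 across 6802 genes. The strongest peaks of a gene can lie at different sites, so folds at the same site were not compared. These correlations are across genes, which share the same 2 libraries.

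CHD8 peaks at member promoters were wide. The strongest CHD8 promoter peak had a median width of 1010.5 bp at members and 638 bp over all genes. A width of 1000 bp or more was found at 20 of 38 members (52.6%, 37.3 to 67.5), beside 18.5% of all genes with CHD8. Among CpG-rich starts it was found at 13 of 28 members (46.4%, 29.5 to 64.2) and at 23.2% of all genes. The 3 widest peaks were at KMT5B (2153 bp), PHF21A (2040 bp) and KDM5B (1939 bp, chr1:202806830-202808768). TRRAP peaks were narrower, with a median of 416 bp at members and 269 bp over all genes. Members also had more peaks per promoter: 19 of 38 had more than 1 CHD8 peak (50.0%, 34.8 to 65.2), as did 23.2% of all genes with CHD8. For TRRAP, 14 of 28 members (50.0%, 32.6 to 67.4) and 23.8% of all genes with a peak had more than 1.

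**Figure D4:**
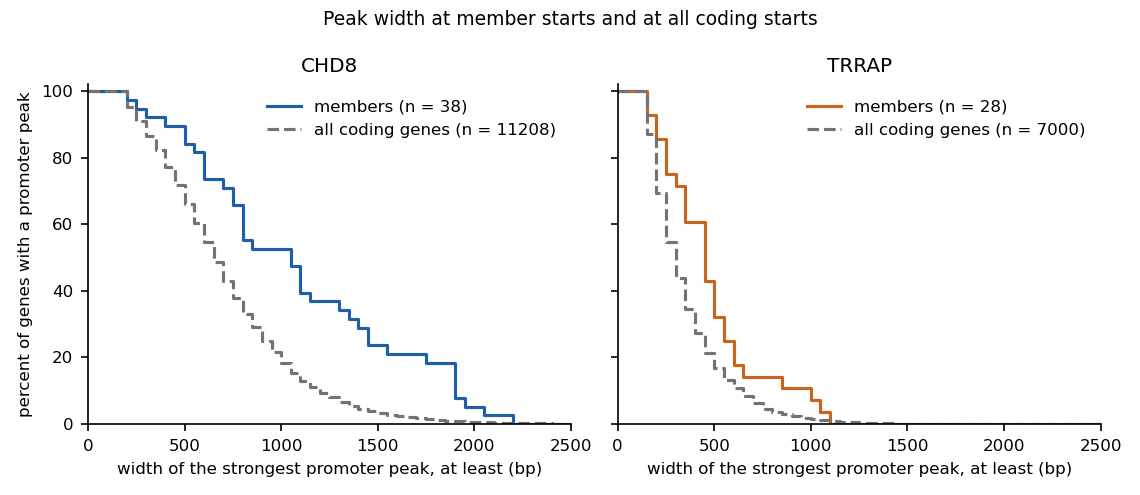
Percent of genes whose strongest promoter peak is at least as wide as the value on the horizontal axis (bp, in steps of 50), for members (solid) and all protein-coding genes with a peak (dashed), for CHD8 (left) and TRRAP (right). At 1000 bp the CHD8 curves stand at 52.6% and 18.5%.

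CHD8 and TRRAP occupied overlapping sites at member promoters. All 28 members with both had at least 1 overlapping pair, as did 98.4% of the 6802 genes with both. Of 44 TRRAP promoter peaks, 43 overlapped a CHD8 peak (97.7%, 88.2 to 99.6), beside 94.0% over all genes. In the other direction 32 of 61 CHD8 promoter peaks (52.5%, 40.2 to 64.5) overlapped TRRAP, beside 51.2%. The strongest summits of the 2 proteins were a median of 136.5 bp apart, from 1 bp at TRIO to 1304 bp at RAI1, and 105 bp apart over all genes. Such summits need not belong to overlapping peaks. At RAI1 the TRRAP summit lay 24 bp from that of a CHD8 gene-body peak (fold 15.5) outside the window. At NCOA1 the strongest summits were 921 bp apart, but a weaker CHD8 summit (fold 11.5) lay 571 bp downstream of the start and the TRRAP summit 569 bp. The strongest CHD8 peak was wider than the strongest TRRAP peak at 27 of 28 members (96.4%, 82.3 to 99.4), beside 92.1% of all genes with both. At 11 of 38 members (28.9%, 17.0 to 44.8) a single CHD8 peak overlapped at least 2 TRRAP peaks by 1 bp or more, beside 11.2% of all genes with CHD8.

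Sequences between and around the paired summits are given for TRIO, LDB1 and IRF2BPL, the members with the closest summits upstream of the start whose stretch holds no annotated UTR. Each runs in the direction of transcription on GRCh38: TRIO at chr5:14143265-14143341 (plus strand), LDB1 at chr10:102120459-102120605 (minus) and IRF2BPL at chr14:77028709-77028929 (minus). Capitals mark exact matches to the words described next.
TRIO, summits 36 and 37 bp upstream: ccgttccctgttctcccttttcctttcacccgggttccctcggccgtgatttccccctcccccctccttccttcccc
LDB1, summits 131 and 197 bp upstream: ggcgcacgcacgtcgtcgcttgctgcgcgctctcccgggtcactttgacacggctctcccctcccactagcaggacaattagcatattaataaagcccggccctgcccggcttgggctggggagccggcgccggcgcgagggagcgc
IRF2BPL, summits 181 and 32 bp upstream: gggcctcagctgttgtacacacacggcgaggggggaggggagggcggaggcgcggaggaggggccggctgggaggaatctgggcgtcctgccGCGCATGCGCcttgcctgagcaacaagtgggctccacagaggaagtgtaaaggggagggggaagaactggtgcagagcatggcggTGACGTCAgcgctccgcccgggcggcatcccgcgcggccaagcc

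Short words of known factors were counted at member summits, and for each word and protein the share over all genes lay inside the Wilson interval of the members. Exact matches on either strand were sought up to 100 bp from the summit of the strongest promoter peak, each word on its own, so that bases can belong to more than 1 word. The E-box of MYC and MAX (CACGTG) lay at 4 of 38 CHD8 summits of members (10.5%, 4.17 to 24.1): MED13L, NAA15, AUTS2 and GIGYF1. Over the 9889 peaks that are the strongest at the promoter of any gene, each counted once, the share was 6.87%. At TRRAP summits it lay at 2 of 28 members (DYRK1A and MED13L, 7.14%), beside 8.96% of 6191 such peaks. The E2F words (TTTCCCGC or TTTGGCGC) lay at 0 of 38 CHD8 and 0 of 28 TRRAP summits, beside 2.44% and 3.09%, with Wilson upper bounds of 9.18% and 12.1% for the members. The ETS word (CCGGAAGT) lay at 0 of 38 and 0 of 28 as well, beside 7.16% and 4.26%.

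Among the other words, the NFY word (CCAAT) lay at 4 of 38 CHD8 summits (10.5%, 4.17 to 24.1) and 1 of 28 TRRAP summits (ILF2), beside 18.5% and 16.1%. The SP word (GGGGCGGGG) lay at 3 of 38 and 5 of 28, beside 18.2% and 22.4%. The YY1 word (AAGATGGCG) lay at 3 of 38 CHD8 summits (DEAF1, CREBBP and TAOK1) and at 1 of 28 TRRAP summits (TRIP12), beside 5.37% and 3.295%. At IRF2BPL the NRF1 word (GCATGCGC) lay near both summits, and near the TRRAP summit also the CRE word of CREB (TGACGTCA). A match describes the letters in the window and not a bound factor.

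Inside the genes, away from the canonical start by more than 1 kb, 25 of 43 members held at least 1 CHD8 summit (58.1%, 43.3 to 71.6), beside 19.1% of all protein-coding genes. TRRAP summits lay inside 17 members (39.5%, 26.4 to 54.4), beside 11.8%. Members are long, with a median of 119 kb against 27.5 kb. Per 100 kb of gene, the members held 1.02 CHD8 peaks (84 in all) and 0.620 TRRAP peaks (51), beside 0.494 and 0.272 over all genes. Without RAI1 the values were 0.902 and 0.519, and without RAI1 and AUTS2 they were 0.826 and 0.536. In genes of 150 kb and over, 12 of 20 members (60.0%, 38.7 to 78.1) and 45.9% of all genes held a CHD8 summit, and the all-gene share lies inside the interval. In genes of 50 to 150 kb the values were 9 of 15 (60.0%, 35.7 to 80.2) and 27.8%, and in genes under 50 kb 4 of 8 (50.0%, 21.5 to 78.5) and 11.6%. In these shorter classes, which hold few members, the all-gene share lies below the interval.

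**Figure D5:**
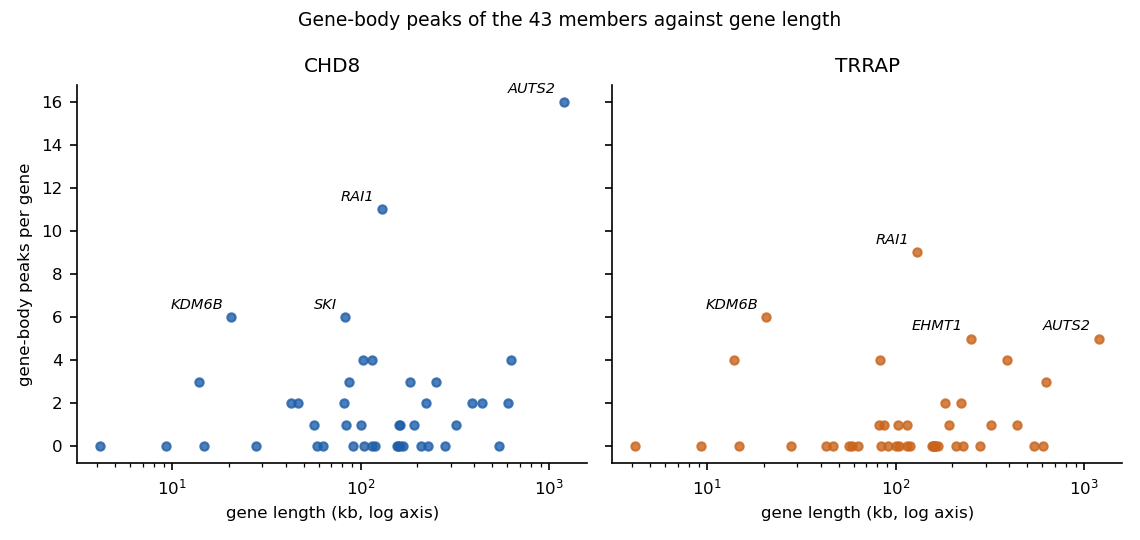
Number of gene-body peaks of CHD8 (left) and TRRAP (right) in each of the 43 members against gene length in kb on a log axis. Genes with at least 5 peaks are named. AUTS2 (16) and RAI1 (11) hold the most CHD8 peaks, and KDM6B holds 6 of each in 20.6 kb.

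Many of these peaks lay at other starts. Of the 84 CHD8 peaks, 29 were within 1 kb of another coding start of the same gene, 5 of a non-coding start of it, 3 of the start of another gene, and 47 of none. Introns held 71 of the 84, and 35 lay in intron 1. Of 51 TRRAP peaks, 40 overlapped a CHD8 peak (78.4%, 65.4 to 87.5), beside 83.1% over all genes, and 35 of the 84 CHD8 peaks overlapped TRRAP (41.7%, 31.7 to 52.3), beside 42.8%. Away from every start, the shares were 15 of 47 CHD8 peaks and 17 of 24 TRRAP peaks. The median fold of gene-body peaks was 7.98 for CHD8 and 8.17 for TRRAP. No all-gene values are given for the start classes, introns, overlaps away from every start or median folds, so these describe the members only.

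RAI1, on chromosome 17, held 11 CHD8 and 9 TRRAP gene-body peaks. The strongest CHD8 peak inside any member was in its intron 1, 13.3 kb from the start (chr17:17694299-17695078, fold 32.3), above the fold of 10.2 at the start of RAI1. A TRRAP peak of fold 7.69 had its summit 74 bp away. In intron 2, 43.5 kb from the start, the strongest TRRAP peak of any member, promoters included (chr17:17724713-17725075, fold 36.4, rank 167), overlapped a CHD8 peak of fold 11.5. Within its list CHD8 ranked 528 at the site in intron 1 and 7181 at that in intron 2, and TRRAP ranked 8855 and 167, so each protein was the stronger for its own list at a different site. The bases up to 50 bp from each summit follow, given because they carry the highest gene-body values, at chr17:17694685-17694785 and chr17:17724880-17724980 on the plus strand. Neither holds any of the searched words, so no letter is in capitals.
RAI1 intron 1, CHD8 summit: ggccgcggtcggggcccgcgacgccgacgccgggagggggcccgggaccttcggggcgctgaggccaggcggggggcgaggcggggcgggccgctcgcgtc
RAI1 intron 2, TRRAP summit: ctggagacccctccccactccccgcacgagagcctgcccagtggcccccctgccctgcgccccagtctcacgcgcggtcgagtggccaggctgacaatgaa

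AUTS2, the longest member at 1195 kb, held 16 CHD8 and 5 TRRAP peaks, spread from 1.01 kb to 1184 kb from the start. Their CHD8 folds were between 5.77 and 10.2, below the fold of 12.8 at its promoter. Near 1096 kb, at other coding starts in intron 5, 3 CHD8 peaks lay side by side and 2 of them overlapped TRRAP.

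SKI and KDM6B held 6 CHD8 peaks each. In SKI, which had no promoter peak, 4 of them in intron 1 had folds from 15.9 to 23.01, and each overlapped a TRRAP peak. The highest, chr1:2247881-2248683, lay 20.1 kb from the start. In KDM6B, 20.6 kb long, 4 of the 6 overlapped TRRAP, and the folds reached 14.6. Its promoter peak of fold 9.75 is 1 of these 6, since its summit lies past 1 kb, and such double placing holds for 5 of the 84 CHD8 and 2 of the 51 TRRAP gene-body peaks. POGZ held the second-highest gene-body CHD8 value, fold 23.9 (chr1:151457896-151458800, 1.16 kb from the start), in a peak that reaches into the promoter window. TRIO held a TRRAP peak of fold 19.6 in intron 1, 121 kb from the start, above the fold of 10.1 at its promoter, with the summit 9 bp from that of a CHD8 peak of fold 7.98.

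Neighbouring genes share some of these starts. An opposite-strand gene start lay within 1 kb of 14 of 43 member starts (32.6%, 20.5 to 47.5), beside 26.6% of all genes. For protein-coding neighbours the counts were 4 of 43 (9.30%, 3.68 to 21.6) and 12.3%: MSTO1 beside ASH1L, FBXO36 beside TRIP12, EPS8L2 and TMEM80 beside DEAF1, and SPG7 beside ANKRD11. Which gene of such a pair a peak belongs to was not tested.

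Other autism genes were set beside the members. A list of 32 further genes headed nuclear regulators was written from general knowledge and includes the CHD8 and TRRAP genes themselves. Of these 32, 29 had CHD8 (90.6%, 75.8 to 96.8) and 19 had TRRAP (59.4%, 42.3 to 74.5), with median folds of 15.9 and 9.12. Both shares lie inside the intervals of the members. Their strongest CHD8 promoter peak had a median width of 866 bp, 12 of 29 were 1000 bp or wider (41.4%, 25.5 to 59.3), and 14 of 29 genes had more than 1 CHD8 promoter peak (48.3%, 31.4 to 65.6). These intervals include the 52.6% and 50.0% of the members. Per 100 kb of gene this list held 0.624 CHD8 and 0.253 TRRAP gene-body peaks. In a list of 28 genes headed synapse and membrane, 8 had CHD8 (28.6%, 15.3 to 47.1), 4 had TRRAP (14.3%, 5.70 to 31.5) and 2 had both. Those 2 were DPYSL2, which codes for a cytoskeletal protein, and PRR12, which codes for a nuclear protein, so neither codes for a synaptic or membrane protein proper. Inside the genes, 16 of the 28 (57.1%, 39.1 to 73.5) held a CHD8 gene-body summit, beside 58.1% of the members. These genes are longer, with a median of 378 kb, and per 100 kb they held 0.285 CHD8 and 0.105 TRRAP gene-body peaks, beside 1.02 and 0.620 in the members. The share with a CHD8 promoter peak in this list lies below the interval of the members and below the 55.9% of all genes. The lists differ in CpG content and were not compared within CpG classes.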

How the data were processed

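Peak lists from 1 CHD8 and 1 TRRAP ChIP-seq library were used. The submitters' processing notes name GRCh38, HISAT2 and MACS2 2.1.1.20160309, and which control and filters were used is not given in the sources used here. The fold is a linear ratio deposited by the authors. The p-values and q-values were deposited as −log10, and the deposited score equals 10 times −log10 q rounded down. Thresholds in the deposited names are 0.0001 for CHD8 and 0.001 for TRRAP, and 14712 of 14735 TRRAP peaks also met 0.0001.

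Peaks were compared with canonical transcripts of GENCODE release 44, with coordinates counted from 1. A promoter peak lies at least partly within 1 kb of the start, and the strongest per gene was described. A gene-body peak has its summit in the gene and more than 1 kb from that start. Peaks overlapped if they shared at least 1 bp. No test was made, since there is 1 library per antibody. Shares carry Wilson 95% intervals. Interval code was tested on planted peaks. The members and lists were chosen with earlier results of these data known. Values were given in full for members lacking a peak, the 5 highest and 5 lowest CHD8 folds (6 with ties), the 5 highest and 3 lowest TRRAP folds, the 3 widest CHD8 peaks, and the 3 genes with the most or strongest gene-body peaks. Other members are given by role. Alternatives were other windows, starts, peak ranks, overlap rules and, added after the data were seen, single-copy summits. Python 3.11.15, numpy 2.4.6, pandas 2.3.3, scipy 1.17.1, pysam 0.24.0, numba 0.67.0 and matplotlib 3.10.9 were used. The IgG library was not analysed here.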

Additional observations from a re-analysis of the deposited data

How the results depend on the processing

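No paired analysis was possible because each antibody has 1 library and no test was made. Counts of members with promoter peaks stayed within 1.5 times their value under every alternative run: from 32 to 40 for CHD8 and from 24 to 35 for TRRAP. Counting the starts of all transcripts raised members with both peaks to 81.4%, with TRRAP then also at DNMT3A, EHMT1, FOXP2, KDM6B, SKI, TCF20 and TCF4. A window of 2500 bp added CHD8 at SKI and TCF4. A window of 500 bp removed TRRAP at ANKRD11 and SIN3A. The share of all genes with both peaks was 32.5% within 500 bp, 35.4% within 2500 bp, 37.3% with all starts and 16.7% with peaks above the median rank, where the members stood at 53.5%. With summits required within 200 bp, 27 member promoter TRRAP peaks paired with CHD8, against 43 by overlap of at least 1 bp. Restricting to peaks above the median rank left 16 overlapping gene-body TRRAP peaks and 16 members with a CHD8 gene-body peak. Requiring gene-body peaks to lie over 1 kb from every transcript start left 18 members with CHD8 and 12 with TRRAP. No all-gene share is given beside these gene-body counts or beside the count of summit pairs within 200 bp, so they describe the members only. Of 233 member peaks, 5 had summits in repeated sequence, all in the bodies of PHF2 and EHMT1, and leaving them out changed no count of members. Read totals are unknown, so depth behind a missing peak cannot be stated.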
